A study of Mus musculus with 4 samples.

Results

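The mouse olfactory receptor genes *Olfr90* to *Olfr137* lie in a cluster beside the major histocompatibility complex (MHC) on chromosome 17. They were examined on 4 gene arrays of alveolar macrophages (AM), the resident phagocytes of the airspaces. Members were taken by name, as every probe set that the platform's annotation pairs with a single symbol made of Olfr and a number from 90 to 137, which gave 39 of 35557 probe sets, each for a different gene. *Olfr110* and *Olfr111* were chosen from their genotype difference on these same arrays, so that difference is given as a description. Their calls in the fit over all genes are counted but are not evidence for it. All 39 genes were on chromosome 17 and protein coding in RefSeq. Of the 48 numbers in that range, 9 had no probe set with such a single symbol. Of these, 6 occurred only in probe sets shared by several receptors and 3 are pseudogenes. *Olfr106-ps*, a pseudogene with a probe set, was not counted as a member, nor was *Olfr138*, the next number outside the range, which lies within the cluster.

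AM were recovered by bronchoalveolar lavage from untreated mice aged 8 to 10 weeks. The groups were WT mice, labelled as C57/Blk6, and TREM2-/- mice, which lack functional *Trem2* in every cell and had been crossed to that strain 10 times. Each genotype had 2 arrays, each of RNA pooled from mice, whose number is not given. The TREM2-/- mice came from 1 mutant line and the WT mice were bought, and all were bred in 1 facility, so an effect of *Trem2* and one of other sequence carried by that line cannot be told apart. The arrays of a genotype are described as biological duplicates, but whether different mice went into each pool is not given, so a p-value reflects only array-to-array spread, part of which may be technical. *Trem2* itself had log2 values of 9.58 and 9.74 in WT AM and of 7.64 and 7.45 in Trem-2-/- AM, in the direction of the labels.

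Olfactory receptors are G protein-coupled receptors that detect odorants in the nose, and they form the largest gene family of the mouse. Each olfactory sensory neuron transcribes a single receptor allele and keeps the other receptor genes silent in heterochromatin. In that neuron the receptor signals through the G protein subunit Golf and adenylyl cyclase 3 to a cyclic nucleotide-gated channel. Most other tissues transcribe few of these genes, so the bulk of the family shows what a probe set reads when its target is scarce.

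*H2-M2*, *Olfr110* and *Olfr111* follow each other in RefSeq gene order, and the signal of all of them was lower in Trem-2-/- AM. The 250 bases before the annotated start of each are printed because these neighbours moved together. They are RefSeq sequences of assembly GRCm38.p6, read 5′ to 3′ on the strand of the gene, and capitals mark matches to GAGGAA, a core bound by PU.1-type factors, on either strand.
*H2-M2*, chr17:37483555-37483804, minus strand: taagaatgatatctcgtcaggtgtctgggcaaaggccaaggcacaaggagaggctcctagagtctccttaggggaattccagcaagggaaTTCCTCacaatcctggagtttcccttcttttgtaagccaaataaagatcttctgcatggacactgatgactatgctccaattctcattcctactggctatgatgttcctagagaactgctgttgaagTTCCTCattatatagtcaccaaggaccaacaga
*Olfr110*, chr17:37492218-37492467, plus strand: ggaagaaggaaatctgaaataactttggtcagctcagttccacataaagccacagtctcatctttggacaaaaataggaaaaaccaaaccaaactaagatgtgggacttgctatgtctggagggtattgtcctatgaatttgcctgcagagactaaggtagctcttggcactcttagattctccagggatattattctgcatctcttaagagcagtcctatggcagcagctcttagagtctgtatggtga
*Olfr111*, chr17:37529707-37529956, plus strand: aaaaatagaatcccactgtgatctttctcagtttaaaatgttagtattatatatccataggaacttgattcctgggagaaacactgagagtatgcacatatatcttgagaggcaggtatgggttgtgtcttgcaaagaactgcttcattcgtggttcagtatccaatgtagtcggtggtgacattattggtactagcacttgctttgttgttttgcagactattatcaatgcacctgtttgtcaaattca
RefSeq also holds a longer model of *Olfr111* that begins upstream of this window. The PU.1-type core occurred in the *H2-M2* window 160 and 33 bases before the start. Windows of 300 bases, 250 before and 50 after the start, were searched on both strands for GAGGAA, for CCCNNGGG (EBF type), for TAATTA (homeodomain) and for TGANTCA (AP-1 type). Neither *Olfr110* nor *Olfr111* held any of these letters, as was so for 11 of the 31 members with a window in RefSeq. GAGGAA occurred in 13 of the 31 and in 28.3% of all 32851 windows, CCCNNGGG in 4 and 13.7%, TAATTA in 4 and 5.29%, and TGANTCA in 2 and 7.81%. In the 913 windows of receptor genes elsewhere the shares were 25.6%, 2.74%, 18.8% and 13.8%. The members' windows had a median GC content of 37.3%, against 35.0% for receptor genes elsewhere and 52.7% over all windows. A match of letters is a description and not evidence of a bound site.

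Apart from *Olfr110* and *Olfr111*, the cluster read low in both genotypes. The median log2 value of the other 37 members was 3.70 and 3.67 on the WT arrays and 3.78 and 3.62 on the Trem-2-/- arrays. The median over all probe sets was 5.84 to 5.86 and the lower quartile 4.39 to 4.40. Of the 37, 27 had a mean below the lower quartile of every array, and only *Olfr91* had a mean above the median of every array. The 984 olfactory receptor probe sets outside the cluster gave medians of 3.60 to 3.68, and 170 probe sets of vomeronasal receptors, which serve pheromone detection, gave 3.16 to 3.25. Probe sets differ in how strongly they bind and no detection call was at hand, so these values describe a floor of this array and not an amount of transcript.

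The floor was not flat across members. *Olfr91* stood highest among the 37, with log2 values of 6.17 and 6.22 in WT AM and 6.20 and 6.22 in Trem-2-/- AM. Next came *Olfr95*, at 5.82 and 5.55 in WT AM and 5.48 and 5.21 in Trem-2-/- AM. *Olfr96* read 5.47 and 5.61 in WT AM and 5.34 and 5.48 in Trem-2-/- AM. *Olfr91* stood above the rest of the 37 on every array, whereas *Olfr96* and *Olfr109* changed places between arrays. *Olfr109* followed with a mean of 5.37 over the 4 arrays and *Olfr94* with 5.17. At the other end *Olfr134* had a mean of 2.60, *Olfr133* of 2.82 and *Olfr108* of 2.84. The members between them covered more than 3 log2 units, whereas the median difference between arrays of 1 genotype was 0.14 in WT AM and 0.17 in Trem-2-/- AM.

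**Figure D1:**
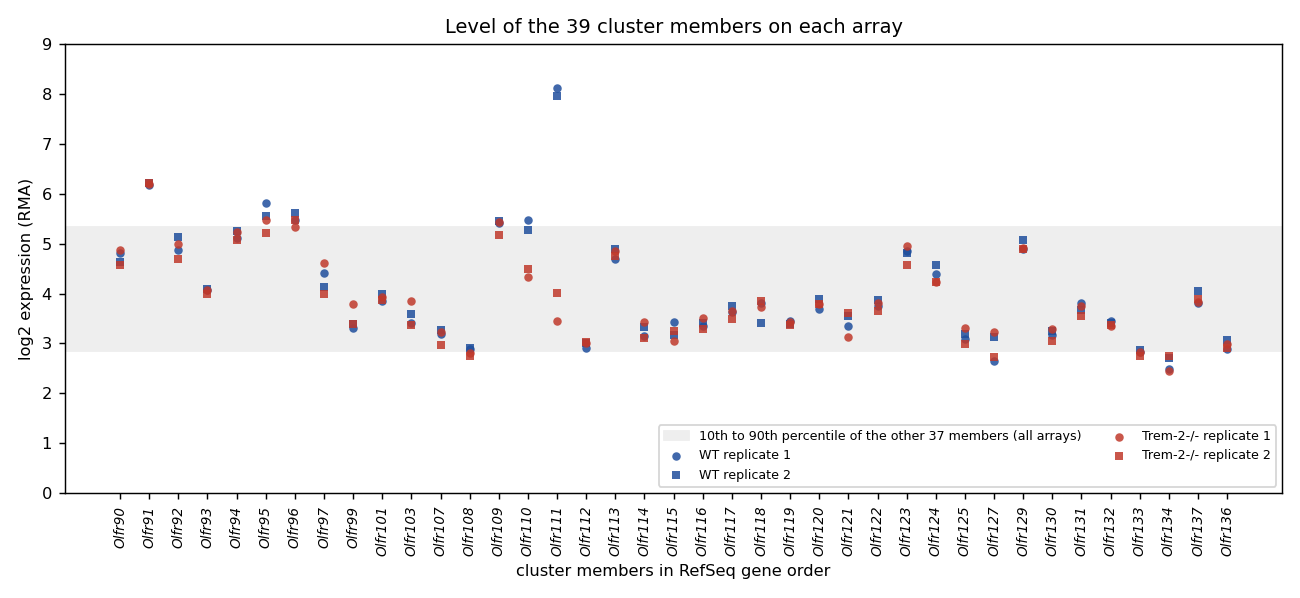
Log2 expression (vertical axis, RMA values) of the 39 cluster members, placed in RefSeq gene order (horizontal axis), on the 2 WT arrays (blue) and 2 Trem-2-/- arrays (red). The grey band spans the 10th to 90th percentiles of the other 37 members, from the lowest to the highest array. The WT values of *Olfr111*, 8.12 and 7.95, lie above every other point, and *Olfr91*, near 6.20, is the brightest of the others.

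*Olfr111* was the member that stood highest above this floor in WT AM. Its probe set (10445141) read 8.12 and 7.95 on the WT arrays and 3.45 and 4.01 on the Trem-2-/- arrays. Both WT values lay above every other member and both Trem-2-/- values lay within the floor, with no overlap between genotypes. The WT mean was 8.04 ± 0.12 and the Trem-2-/- mean 3.73 ± 0.40 (± SD over 2 arrays), a log2 difference of −4.31 and a 19.8-fold higher signal in WT AM. The difference exceeded the gaps between arrays of 1 genotype, which were 0.17 in WT AM and 0.57 in Trem-2-/- AM. In a bulk sample a loss of cells that express a gene and a loss of its RNA per cell cannot be told apart. No probe sequences were at hand, so whether the probes of *H2-M2*, *Olfr110* and *Olfr111* match the mutant line's sequence was not tested.

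Measured from the median of the other members on the same array, *Olfr111* stood 4.43 and 4.29 log2 units above in WT AM. In Trem-2-/- AM it stood 0.34 below the median on replicate 1 and 0.39 above it on replicate 2. No other member exceeded it on a WT array, and the highest one, *Olfr91*, was 1.95 and 1.74 log2 units lower. On the Trem-2-/- arrays 23 and 11 of the 37 exceeded it. Of all probe sets, 74.5% and 73.3% read lower than *Olfr111* in WT AM and 11.7% and 19.5% in Trem-2-/- AM. Because its Trem-2-/- values lie in the range of the floor, the fold is limited by that floor.

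*Olfr110*, its neighbour, showed the same direction on a smaller scale. Its probe set (10445139) read 5.46 and 5.27 in WT AM and 4.33 and 4.49 in Trem-2-/- AM. The genotypes did not overlap, but none of these values left the range of the other members. The WT mean was 5.37 ± 0.14 and the Trem-2-/- mean 4.41 ± 0.11 (± SD over 2 arrays), a log2 difference of −0.96 and a 1.94-fold higher signal in WT AM. In WT AM *Olfr110* stood 1.76 and 1.60 log2 units above the median of the other members, with 3 and 4 of them higher. In Trem-2-/- AM it stood 0.54 and 0.87 above, with 11 and 10 of them higher.

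Compared with the whole receptor family, *Olfr111* in WT AM was among the brightest. Among 1023 receptor probe sets it ranked 1 and 3 on the WT arrays and 615 and 329 on the Trem-2-/- arrays, while *Olfr110* ranked 52 and 75 and then 239 and 198. *Olfr767* read 7.95 and 8.50 in WT AM and 7.82 and 7.75 in Trem-2-/- AM. *Olfr1174* read 7.87 and 8.13 in WT AM and 7.88 and 7.62 in Trem-2-/- AM. These probe sets had WT levels close to that of *Olfr111*, and in Trem-2-/- AM they were the brightest of the family. Differences among the 976 receptor genes outside the cluster ran from −0.77 to 0.61, with a median of −0.058.

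**Figure D2:**
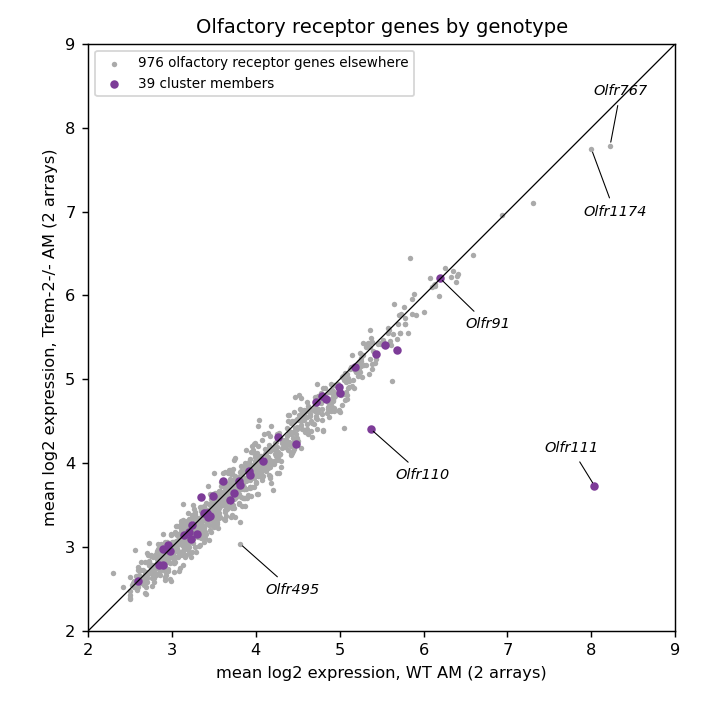
Mean log2 expression of each olfactory receptor gene in WT AM (horizontal axis) and Trem-2-/- AM (vertical axis), 2 arrays each, with the line of equal values. Cluster members are purple and the 976 genes elsewhere grey, and *Olfr111*, at 8.04 and 3.73, lies farthest from the line.

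None of the other 37 members passed the test. In a limma fit over all 19946 genes with Benjamini-Hochberg adjustment, 2 of the 39 members, *Olfr110* and *Olfr111*, were called lower and 0 higher in Trem-2-/- AM, where 0.135% of all genes were called lower and 0.431% higher. Both were chosen on this contrast, so their calls carry no weight of their own, and *Olfr110* was no longer called once any 1 array was left out. For the other 37 the lowest adjusted p was 0.37 from limma. At an unadjusted p below 0.05 there were 2 of 37, or 5.41%, against 11.5% of all genes. SAM, the test the methods name, also called none of the 37.

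The differences of these 37 members were small. They ran from −0.34 to 0.24 with a median of −0.039, against −0.021 over all genes, and 12 were positive and 25 negative. Their median size was 0.072, and the median gaps between replicate arrays were 0.14 and 0.17. A difference of means of 2 arrays varies less than a gap between single arrays, so these sizes are not directly comparable. The 95% interval of a member's difference reached a median of 0.24 to either side (limma). That interval is not adjusted for the number of genes, so the adjusted test can miss larger differences too. *Olfr95*, at −0.34, did not pass it. The arrays of the genotypes did not overlap for 4 of the 37 toward lower values in Trem-2-/- AM (10.8%, where 25.4% of all genes did so) and for 2 toward higher values (5.41%, where 17.4% did).

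*Olfr95* had the largest decrease among the 37, −0.34 (95% interval −0.66 to −0.03, adjusted p = 0.40 from limma). *Olfr124*, at 4.39 and 4.57 in WT AM and 4.23 and 4.23 in Trem-2-/- AM, differed by −0.25 (adjusted p = 0.37 from limma), and *Olfr92* by −0.16. The largest increase was that of *Olfr99*, 0.24, from 3.32 and 3.38 to 3.79 and 3.39, and it rested on Trem-2-/- replicate 1. *Olfr118* differed by 0.18 and *Olfr103* by 0.12. None of these differences passed the test. Trem-2-/- replicate 1 read higher than replicate 2 for 26 of the 37 and WT replicate 1 lower than replicate 2 for 28, against 52.5% and 47.1% of all genes.

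The lower signal took in 3 consecutive genes. *H2-M2*, a nonclassical MHC class I gene that lies between *Olfr109* and *Olfr110*, read 8.33 and 7.98 in WT AM and 5.64 and 5.75 in Trem-2-/- AM. Its genotypes were well apart, with means of 8.15 ± 0.25 and 5.70 ± 0.082 (± SD over 2 arrays). Signal was 5.49-fold higher in WT AM, a log2 difference of −2.46 with a standard error of 0.13 (limma, adjusted p = 0.0012).

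Neither of the measured genes adjoining these 3 passed the test. *Olfr109*, next before *H2-M2*, read 5.41 and 5.46 in WT AM and 5.43 and 5.18 in Trem-2-/- AM, a difference of −0.12 (95% interval −0.37 to 0.12). *Olfr112*, next after *Olfr111*, read 2.90 and 3.0 in WT AM and 3.01 and 3.02 in Trem-2-/- AM, a difference of 0.068 (95% interval −0.12 to 0.25). At so low a level a decrease of *Olfr112* may not be visible. Farther out, *Olfr108* (−0.11), *Olfr107* (−0.13) and *Olfr106-ps* (−0.19) before, and *Olfr113* (0.018), *Olfr114* (0.024), *Olfr115* (−0.14) and *Olfr116* (0.021) after, did not pass the test either. Of the 10 measured genes within 5 places of the pair, 8 of them members, 1 was called, and it was *H2-M2*.

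The span of the cluster holds 44 measured genes, of which 5 are not members, and 1 of these 5 was called lower and 0 higher. Besides *H2-M2* they are *H2-M3*, *Ubd*, *Olfr106-ps* and *Olfr138*. *H2-M3*, a class I gene that presents formylated peptides and lies between *Olfr97* and *Olfr99*, read 7.31 and 7.41 in WT AM and 6.85 and 6.91 in Trem-2-/- AM. Its genotypes did not overlap, but the difference of −0.48 did not pass the test (adjusted p = 0.083 from limma). SAM did not call *H2-M3* either, nor did limma with a replicate block (adjusted p = 0.086). *H2-M3* did pass in limma with an intensity trend and robust variance (adjusted p = 0.0063). That fit called 669 genes, against 113 in the main fit. *Ubd*, a ubiquitin-like modifier gene, differed by 0.071 and *Olfr138* by 0.023. *Trem2* lies on the same chromosome, with 131 measured genes between it and *Olfr111*. Of 25 measured genes listed as MHC-linked, among or beside the cluster, 1 fell (*H2-M2*), 0 rose and 24 did not pass, and their median difference was −0.0079. *Gabbr1*, a GABA-B receptor subunit gene next to *Olfr90*, differed by 0.16 (adjusted p = 0.49 from limma), and *Ppp1r11*, at 8.70 in WT AM, by 0.18 (adjusted p = 0.51 from limma).

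**Figure D3:**
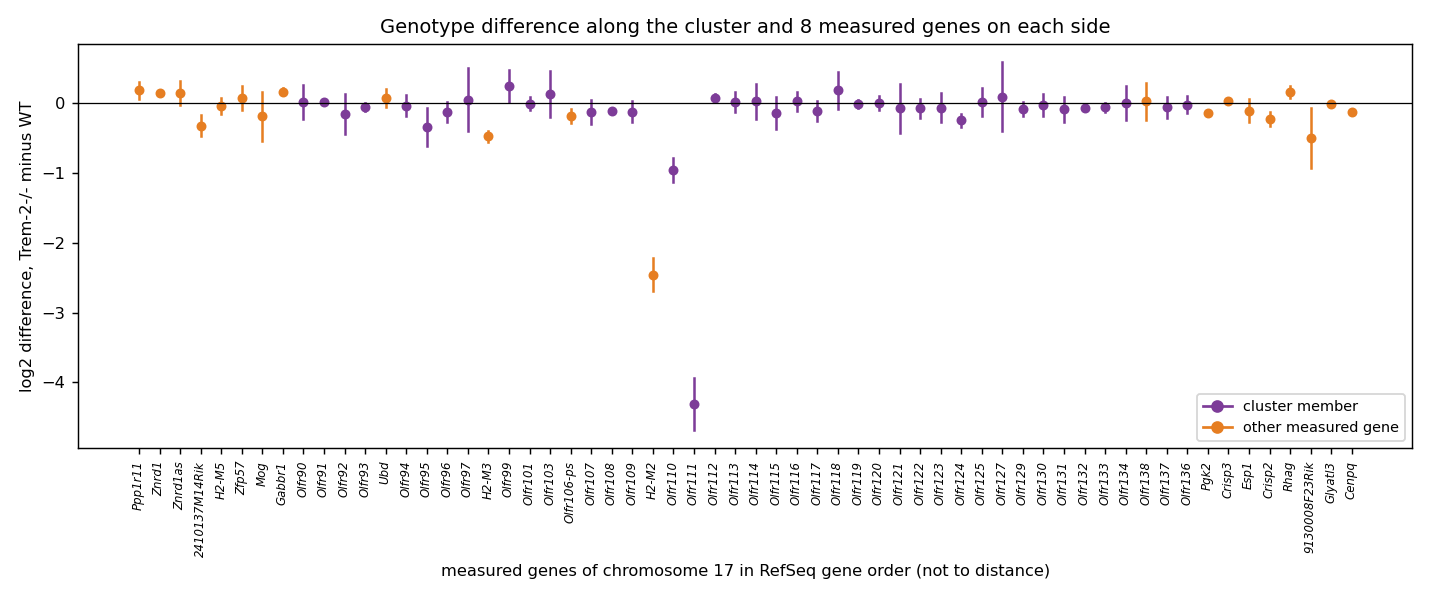
Log2 difference, Trem-2-/- minus WT, of each measured gene along the cluster and of 8 measured genes on each side, in RefSeq gene order and not to distance. Points are differences of the means and bars span the 4 differences between single arrays. *H2-M2* (−2.46), *Olfr110* (−0.96) and *Olfr111* (−4.31) stand together below the others.

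None of the measured genes that serve olfactory receptors in the nose passed the test. Of 19 measured genes of olfactory signalling 0 rose and 0 fell at the adjusted threshold, and the median difference was −0.0088. *Gnal*, which encodes the alpha subunit of Golf, read 4.42 and 4.37 in WT AM and 4.36 and 4.40 in Trem-2-/- AM. *Cnga2*, a subunit of the olfactory cation channel, read 3.98 and 3.67 in WT AM and 3.61 and 3.54 in Trem-2-/- AM. *Omp*, a protein of mature olfactory neurons, read 5.94 and 5.94 in WT AM and 5.87 and 5.69 in Trem-2-/- AM. *Gnal* and *Cnga2* thus read within the floor of the cluster, and *Omp* above its 90th percentile but below *Olfr91*. *Cngb1*, in the same list, read above *Olfr91*, at 7.08 and 7.01 in WT AM and 7.15 and 7.01 in Trem-2-/- AM. Mean levels of the 19 genes ran from 3.70 to 12.4, with a median of 5.28.

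*Adcy3*, encoding adenylyl cyclase 3, which many cell types use, was bright at 10.21 and 10.15 in WT AM and 10.19 and 10.14 in Trem-2-/- AM. Among 12 measured genes of receptor gene choice 0 rose and 0 fell, with a median difference of −0.098. *Lhx2*, the homeodomain factor of receptor enhancers, had means of 6.44 in WT AM and 6.32 in Trem-2-/- AM. *Ebf1*, an EBF factor also needed by B cells, had 4.19 and 4.14. *Kdm1a*, the histone demethylase LSD1, had 9.14 and 9.17.

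**Figure D4:**
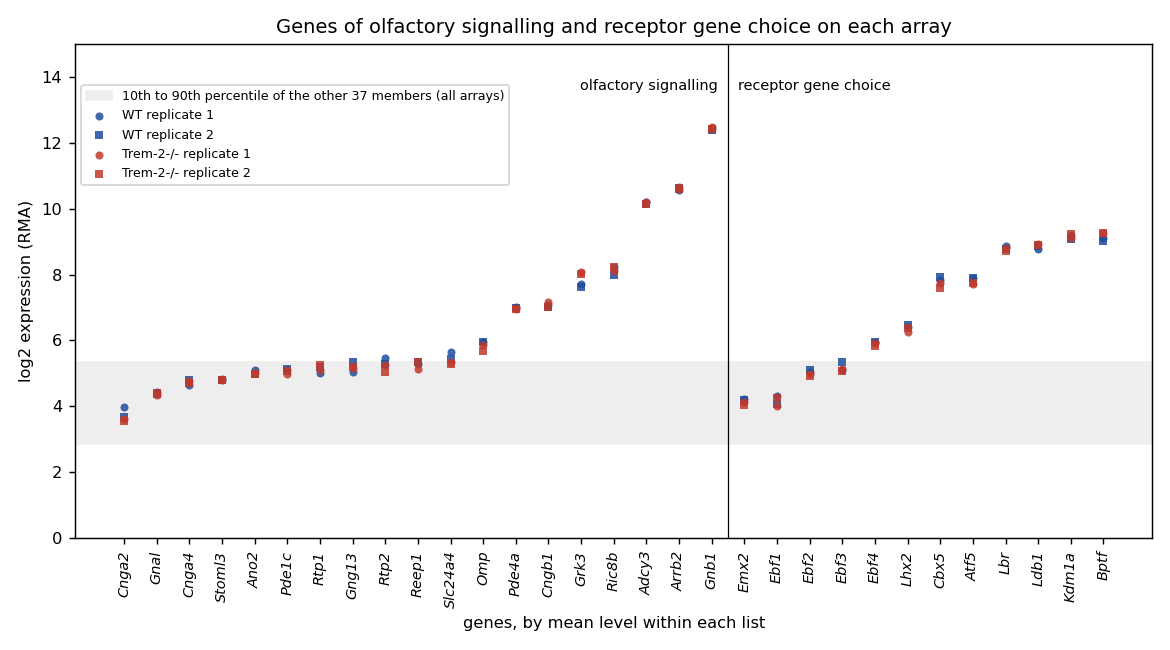
Log2 expression (vertical axis, RMA values) of 19 genes of olfactory signalling and 12 genes of receptor gene choice on the 2 WT (blue) and 2 Trem-2-/- arrays (red), ordered by mean level within each list. The grey band is the 10th to 90th percentile range of the other 37 cluster members. *Cnga2* and *Gnal* lie within it and *Adcy3* far above, and no gene shown differed past the adjusted threshold.

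Of 6 measured receptor genes that have been studied outside the nose 0 passed the test, and their mean levels ran from 3.32 to 5.47. *Olfr2*, described in vascular macrophages, read 3.48 and 3.28 in WT AM and 3.28 and 3.22 in Trem-2-/- AM. Outside the cluster 1 receptor gene was called, *Olfr495*, whose mean was 3.81 ± 0.15 in WT AM and 3.04 ± 0.052 in Trem-2-/- AM (± SD over 2 arrays), a difference of −0.77 (adjusted p = 0.037 from limma) within the range of the floor. The 7 probe sets shared by several receptors of the cluster read 2.69 to 4.47, with differences of −0.28 to 0.20.

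Most markers of the labelled cell type were bright. The 11 measured AM markers had a median level of 11.2, and 1 of them, *Car4*, rose. *Car4* was the dimmest of them, at 5.81 and 6.10 in WT AM and 6.85 and 6.85 in Trem-2-/- AM. The other 10 did not pass the test, and the median difference of the list was −0.0045. Called genes in 2 of the 7 marker lists of other cells were higher in Trem-2-/- AM, where *Olfr111* was lower. Of 11 markers of interstitial or monocyte-derived macrophages 7 rose (*Cx3cr1*, *Ccr2*, *Apoe*, *Pf4*, *H2-Aa*, *Cd74* and *Tmem176b*) and 0 fell. Over all genes 0.431% were called higher. *Lyve1* (−0.094), *Folr2* (−0.065), *Maf* (−0.011) and *Cd163* (0.10) did not pass the test. Mean log2 values of the list were 7.14 and 7.18 on the WT arrays and 7.91 and 7.90 on the Trem-2-/- arrays. Of 9 markers of lung epithelium 2 rose (*Scgb1a1* and *Cldn18*) and 0 fell, with list means of 6.41 and 6.43 and then 6.92 and 6.94. The other 7 did not pass the test. *Krt18* (0.95), *Krt8* (0.83), *Ager* (0.48) and *Sftpc* (0.44) read higher in Trem-2-/- AM. *Sftpb* (−0.10), *Epcam* (−0.085) and *Sftpa1* (−0.079) read lower. Whether the share of other cells differed between genotypes, and its part in the lower signal of *Olfr111*, was not tested. No marker among 8 neutrophil, 5 dendritic cell, 3 B cell, 6 T or NK cell and 10 olfactory sensory neuron markers passed the test.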

How the data were processed

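RNA of AM pools was hybridized to 4 Affymetrix mouse gene arrays, 2 per genotype. The authors normalized the arrays together with RMA (version not given in the sources used here; genome build mm9 per the labels) and deposited log2 values, 1 per probe set and array. RMA equalizes the distribution of values between arrays. It does not make different probe sets comparable, and their levels also reflect probe affinity. Scanner intensities were not analysed here. Genes were named through the platform's annotation. Of 35557 probe sets 21797 carry 1 symbol, and the brightest was kept for each of 19946 genes. RefSeq (GRCm38.p6) gave gene order and the windows around annotated starts, and its build differs from mm9. Whether these starts are the ones used in AM was not tested.

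Genotypes were compared with limma 3.58.1 (lmFit, eBayes; R 4.3.3), two-sided, over 19946 genes at an adjusted p of 0.05, without a replicate term. SAM was written from its published form, and it and the limma step were tested on simulated data. With 4 arrays, which limit the precision, the smallest p of an exact permutation test for 1 gene is 0.333. The members and gene lists were chosen with earlier results of these data known. Genes named are *Trem2*, *Olfr110*, *Olfr111*, the 5 brightest and 3 dimmest other members, the 3 largest differences in each direction among them, 5 measured neighbours on each side, and from each gene list the called genes and up to 4 others with a textbook role. *Olfr495*, *Olfr767*, *Olfr1174*, *Olfr138* and *Cngb1* were added after their values were seen. So were the uncalled markers of interstitial or monocyte-derived macrophages and of lung epithelium. Alternatives were SAM at a false-discovery rate of 5%, an intensity trend with robust variance, a replicate block, quantile normalization, median centring, all probe sets, averaging the probe sets of each gene, a filter at a mean log2 value of 6, other floors and leaving out each array.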

Additional observations from a re-analysis of the deposited data

How the results depend on the processing

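The log2 difference of *Olfr111* lay between −4.59 and −4.02 and that of *Olfr110* between −1.06 and −0.86 under quantile normalization, median centring, averaged probe sets and with each array left out, and the median of the other 37 members between −0.10 and 0.0051. No member was called higher under any alternative. SAM, the trend with robust variance, quantile normalization, centring and the replicate block kept 2 members called lower. With 1 array left out (the lone array of a genotype is assumed to vary like the others) 1 member was called lower in every fit (1 to 1), and *Olfr110* was the call lost each time. It was 1 with all rows as probe sets and 0 with a mean of at least 6, which both *Olfr110* and *Olfr111* miss by construction. Genes called over all went from 113 to 192 with SAM, 669 with the trend, 23 with all probe sets, 357 with the filter and 28 to 49 with 1 array left out, and the cause was not tested. Replicate deviations of the 2 genotypes had a correlation of −0.05 over genes, which cannot show whether arrays were handled in pairs. The replicate block gave 129 calls.

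The height above the floor depended on its definition. Against vomeronasal receptors, *Olfr111* stood 4.83 above in WT AM and 0.54 above in Trem-2-/- AM (0.029 above the median of the other members), and *Olfr110* 2.16 above in WT AM and 1.22 above in Trem-2-/- AM. Against the 90th percentile of the other members, *Olfr111* stood at 2.75 in WT AM and −1.46 in Trem-2-/- AM, and *Olfr110* at 0.084 and −0.78, which reversed its sign. The shift follows from the higher or lower reference. At this floor, without detection calls, presence or absence of a transcript cannot be read from a level.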
